A study of Mus musculus with 10 samples.

Results

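The comparison described here sets mouse embryonic stem cells that received siRNA against Fbxw7 against cells that received a non-targeting siRNA, both during retinoic acid differentiation. The members were taken by group label: 2 arrays labelled siFbxw7 and 2 labelled siNonTarget, of 10 arrays in all. All cells were of the line NG4, were transfected at plating, were kept in retinoic acid and gave RNA at 48 h. All groups, the controls included, therefore carry both an siRNA and retinoic acid, and no untreated or undifferentiated cells are among the arrays. The other 6 arrays, 2 each labelled siRnf31, siSox17 and siSocs3, are used only to place results and to estimate the spread. Single siRNA sequences, the number of siRNAs per target and whether replicates were separate cultures are not given in the labels, so the p-values cover the spread among these arrays, which may be technical.

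FBXW7 is an F-box protein. Within an SCF ubiquitin ligase it is the part that binds substrates, while CUL1 is the scaffold, SKP1 the adaptor and RBX1 the RING subunit. It recognises a phosphorylated degron, often made by GSK3B, and so marks proteins such as MYC, cyclin E, JUN, NOTCH and KLF5 for the proteasome. Its action is on protein stability, whereas the arrays measured transcripts. The series title places the experiment among knockdowns of members of the ubiquitin-proteasome system in these cells.

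Values are log2 of the RMA intensities, and a difference is siFbxw7 minus siNonTarget in log2 units with its standard error from limma (n = 2 arrays per group throughout). The array medians lay between 46.39 and 47.95 on the linear scale, and 18194 genes were tested. Markers of embryonic stem cells were present: all 8 of 8 read above the median gene, with mean levels of 9.5 to 14.09. Of 8 markers of fibroblast feeder cells, 1 read above it. The difference between the 3' and 5' actin control probe sets, a sign of RNA integrity, was 0.60 and 0.21 in siFbxw7 and 0.50 and 0.25 in siNonTarget, against 0.25 to 0.29 on the other 6. By this measure replicate 1 of both groups stood apart from the rest. The Gapdh control had the same order, at 0.25 and -0.03 in siFbxw7 and 0.18 and -0.01 in siNonTarget. For the transferrin receptor control the order was reversed, at 2.34 and 2.57 in siFbxw7 and 2.24 and 2.64 in siNonTarget. In number of genes at least 2-fold apart, siFbxw7 replicate 1 lay close to siNonTarget replicate 1 (3 genes), while replicate 2 of siFbxw7 and replicate 2 of siNonTarget differed in 285 genes. The replicates of siFbxw7 differed from each other in 208 genes and those of siNonTarget in 220. The replicate 2 arrays too lay closer to another group than to their own: siFbxw7 replicate 2 differed from siSox17 replicate 2 in 10 genes, and siNonTarget replicate 2 from siRnf31 replicate 2 in 14. None of the 4 arrays was thus nearest to its own replicate. The spread within each group was therefore of the same order as the difference between the groups.

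The targeted transcript read slightly lower in the siFbxw7 group, within the spread. On its brighter probe set (1451558_at) Fbxw7 read 9.04 and 9.28 on the siFbxw7 arrays, against 9.27 and 9.55 on the siNonTarget arrays. The higher siFbxw7 array and the lower control array were level, and the difference of -0.25 ± 0.15 did not pass the test (limma, Benjamini-Hochberg adjusted p = 0.775). The other probe set (1424986_s_at) read 8.91 and 8.86 on the siFbxw7 arrays, against 9.47 and 9.29 on the siNonTarget arrays. There both siFbxw7 arrays were below both controls, with a difference of -0.50 ± 0.29 and an unadjusted p of 0.123. The transcript did not check the label, and each direction below rests on the labels.

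The other groups give a wider frame for this transcript. On 1451558_at, Fbxw7 read 9.74 and 9.37 on the siRnf31 arrays, 9.92 and 9.89 on the siSox17 arrays, and 9.44 and 9.60 on the siSocs3 arrays. The siFbxw7 group had the lowest mean, siNonTarget the next lowest and siSox17 the highest. The mean was -0.39 ± 0.15 in siFbxw7 relative to siRnf31, -0.75 ± 0.15 relative to siSox17 and -0.36 ± 0.15 relative to siSocs3. None of these passed after adjustment over all genes (limma, adjusted p = 0.922, 0.855 and 0.265), although the unadjusted p against siSox17 was 0.000963. Neighbouring groups in this order overlapped at this probe set, apart from siSox17, whose arrays lay above all others.

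**Figure D1:**
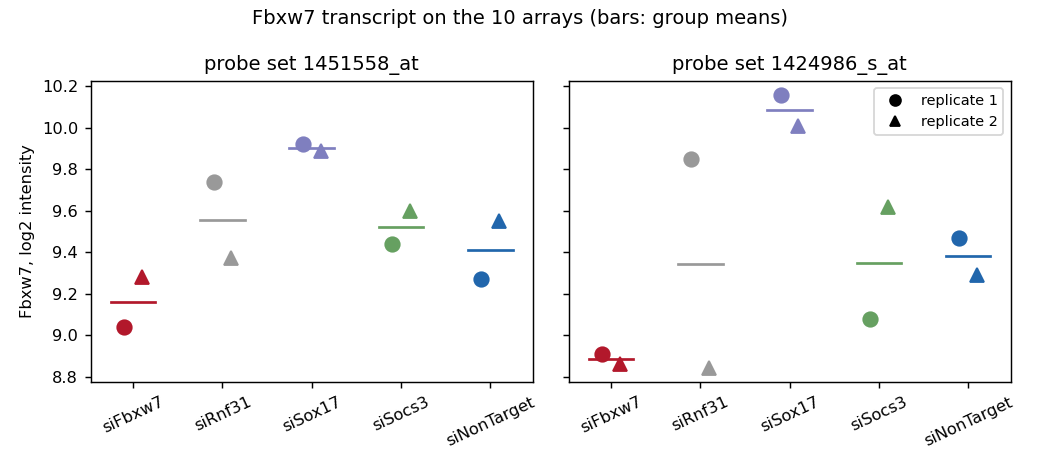
Log2 intensity of Fbxw7 (y axis) in each group (x axis) for its 2 probe sets. Points are single arrays, the shape gives the replicate number and the bar is the group mean. In the left panel the siFbxw7 arrays, at 9.04 and 9.28, reach the lower siNonTarget array at 9.27, and in the right panel they lie below both siNonTarget arrays.

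Across the genome no gene passed the test between siFbxw7 and siNonTarget. Of 18194 genes, 0 (0%) had an adjusted p under 0.05 (limma, Benjamini-Hochberg), and the smallest adjusted p was 0.752. Without adjustment, 577 genes (3.17%) read higher and 597 (3.28%) read lower at a p under 0.05. Both siFbxw7 arrays lay above both siNonTarget arrays in 3079 genes (16.9%), and below both in 2934 genes (16.1%). Differences were small for most genes: the middle 90% lay between -0.33 and 0.29, around a median of 0. A mean difference of at least 2-fold was seen in 18 genes that read higher, 12 of them with both arrays above the controls, and in 18 that read lower, 15 of them with both arrays below.

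**Figure D2:**
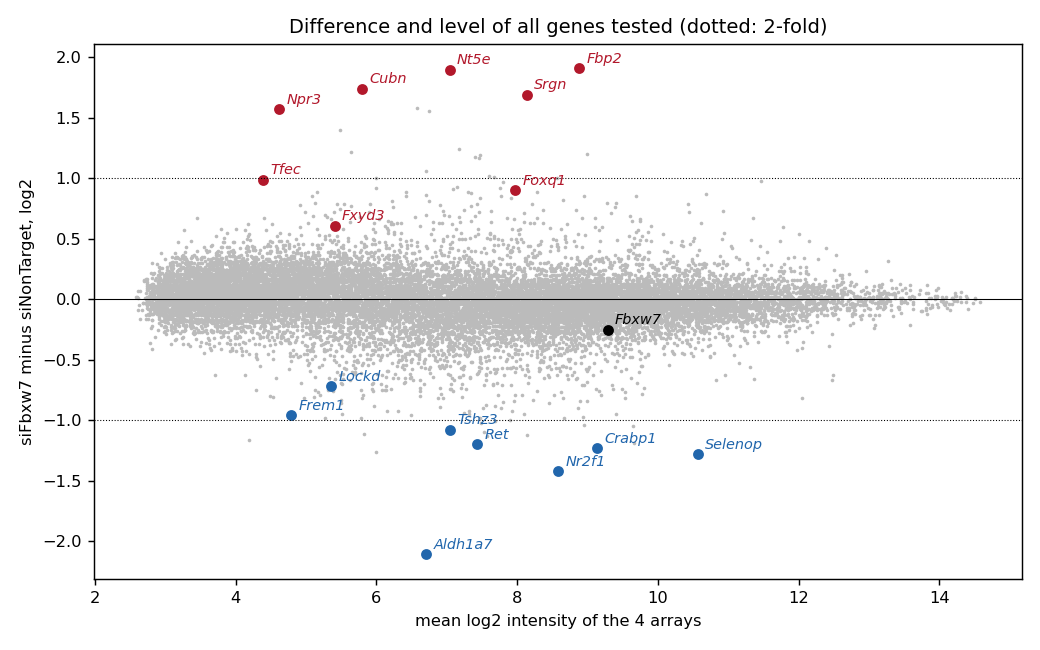
Difference siFbxw7 minus siNonTarget (y axis, log2) against the mean log2 intensity of the 4 arrays (x axis), with 1 point per gene tested. Labelled genes are the 10 with the largest differences among genes whose groups did not overlap, further named genes and Fbxw7 in black at -0.25, and the dotted lines mark 2-fold.

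The genes described next had the 5 largest differences in each direction among genes whose groups did not overlap, and none passed the test. Among those that read higher, Fbp2, a fructose bisphosphatase of gluconeogenesis, read 9.21 and 10.47 in siFbxw7 and 8.70 and 7.17 in siNonTarget, a difference of 1.91 ± 0.54. Nt5e, the ecto-nucleotidase CD73, read 7.49 and 8.49 on the siFbxw7 arrays, against 6.93 and 5.25 on the siNonTarget arrays (1.90 ± 0.60). In both genes the groups did not overlap, and the replicates of each group also lay far apart. Srgn, the core protein of the proteoglycan serglycin, read 8.43 and 9.53 in siFbxw7 and 7.87 and 6.72 in siNonTarget (1.69 ± 0.47). Npr3, the clearance receptor for natriuretic peptides, read 4.67 and 6.14 on the siFbxw7 arrays, against 4.03 and 3.64 on the siNonTarget arrays (1.57 ± 0.52). All of these genes had an adjusted p of 0.752.

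Among those that read lower, Aldh1a7, an aldehyde dehydrogenase, had the largest difference. It read 6.60 and 4.70 in siFbxw7 and 7.41 and 8.11 in siNonTarget (-2.11 ± 0.72, adjusted p = 0.752). Nr2f1, a nuclear receptor induced by retinoic acid, read 8.69 and 7.05 on the siFbxw7 arrays, against 9.04 and 9.54 on the siNonTarget arrays (-1.42 ± 0.57). Crabp1, a cellular retinoic acid binding protein, read 9.35 and 7.68 in siFbxw7 and 10 and 9.49 in siNonTarget (-1.23 ± 0.53). In these 3 genes siFbxw7 replicate 1 lay nearer the controls than siFbxw7 replicate 2. The receptor tyrosine kinase gene Ret (-1.20 ± 0.40) and the selenium carrier gene Selenop (-1.28 ± 0.45) had the same order of arrays.

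In all 10 of these genes the difference between the replicate 2 arrays was the larger. Array 1 of siFbxw7 minus array 1 of siNonTarget gave 0.51 for Fbp2, 0.56 for Nt5e and -0.35 for Nr2f1, and array 2 minus array 2 gave 3.30, 3.25 and -2.48 for the same genes. The size of these differences came mainly from the replicate 2 arrays. The actin 3' to 5' difference given above moves with this split, and its part was not tested. For some of these genes other arrays of the series also reached these levels: Nt5e read 8.77 on siSox17 replicate 2, and Aldh1a7 read 3.97 on siSocs3 replicate 1. In 2 of the 10, Srgn and Cubn (described below), both siFbxw7 arrays lay above all other arrays. In another 2, Selenop and Ret, both siNonTarget arrays did. These genes were chosen by their differences, so the counts carry no test.

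Genes with the smallest unadjusted p had smaller differences and mostly tighter replicates. Many of them were dim. By mean level over all arrays, the 10 that read higher lay between percentiles 6.1 (Cyp4x1) and 43.7 (Sdcbp2) of all genes. The 10 that read lower lay between percentiles 20.3 (Asgr1) and 51.7 (Slc66a2). Among the 10 that read higher, Fxyd3, a regulator of the sodium pump, read 5.67 and 5.75 on the siFbxw7 arrays, against 5.03 and 5.17 on the siNonTarget arrays (0.61 ± 0.09, unadjusted p = 0.00012, limma adjusted p = 0.752). Tfec, a transcription factor of the MITF and TFE family, read 4.52 and 5.25 in siFbxw7 and 3.92 and 3.87 in siNonTarget (0.99 ± 0.21). Tsix, the antisense RNA of Xist, read 4.27 and 4.57 on the siFbxw7 arrays, against 3.92 and 3.78 on the siNonTarget arrays (0.57 ± 0.12). The siFbxw7 arrays were higher than both controls in each of these. The other 7 were Fbxl13 (an F-box protein), Cyp4x1 (a cytochrome P450), Tspan8 (a tetraspanin), Atoh1 (a proneural transcription factor), Ihh (a hedgehog ligand), Pgpep1l and Sdcbp2 (syntenin-2), with differences of 0.44 to 0.92. Tspan8 had 5 probe sets, and one of the dimmer ones (1424649_a_at) read 4.82 and 5.76 in siFbxw7 and 4.04 and 3.83 in siNonTarget, a difference of 1.35 ± 0.31.

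Among the 10 that read lower, Lockd, a long non-coding RNA transcribed downstream of Cdkn1b, read 5.12 and 4.89 on the siFbxw7 arrays, against 5.70 and 5.75 on the siNonTarget arrays (-0.72 ± 0.11, unadjusted p = 0.000139, limma adjusted p = 0.752). Bcl6, a transcriptional repressor, read 5.47 and 5.65 in siFbxw7 and 6.08 and 6.51 in siNonTarget (-0.74 ± 0.15). Its other probe set (1450381_a_at) read 4.22 and 4.27 on the siFbxw7 arrays, against 4.18 and 4.20 on the siNonTarget arrays. That probe set was dim and did not show the lower reading. Ulk2, a kinase that starts autophagy, read 7.19 and 7.05 in siFbxw7 and 7.75 and 7.72 in siNonTarget (-0.62 ± 0.12). The others were Asgr1 (a hepatic lectin), Tshz3 (a zinc finger factor), Ppp2r3a (a regulatory subunit of the phosphatase PP2A), Maf (a bZIP factor), Slc66a2, Arhgap30 (a GTPase-activating protein) and Frem1 (a matrix protein), with differences of -0.45 to -1.08. The neighbour of Lockd, Cdkn1b, which encodes the cell cycle inhibitor p27, read 8.65 and 8.37 on the siFbxw7 arrays, against 8.75 and 9.0 on the siNonTarget arrays (-0.37 ± 0.17).

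**Figure D3:**
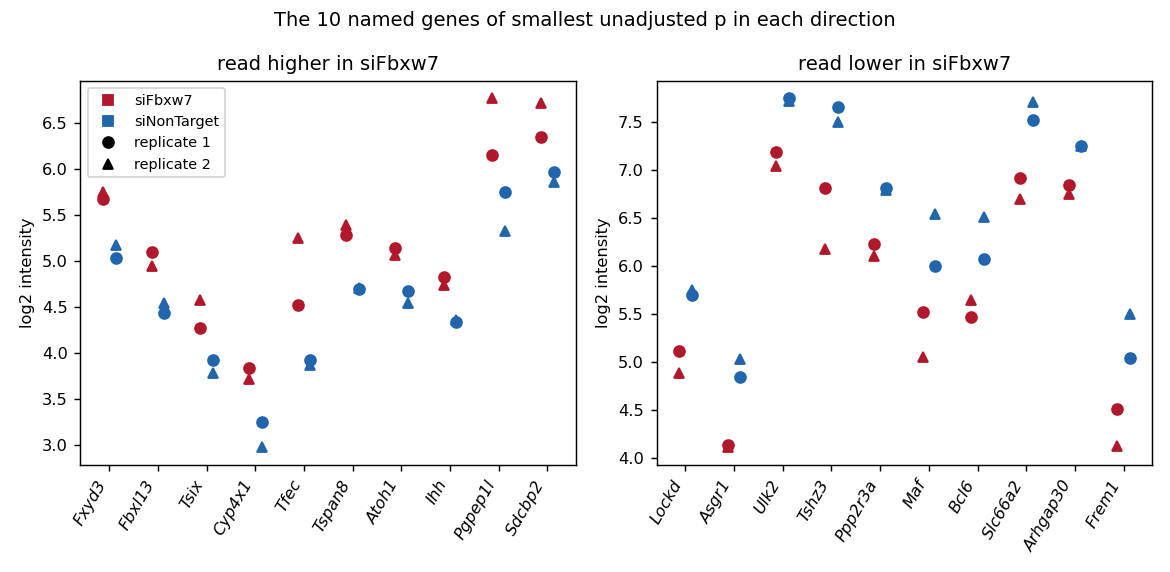
Log2 intensity (y axis) of the 10 named genes of smallest unadjusted p that read higher (left) and lower (right) in siFbxw7. Each point is 1 array, with siFbxw7 in red to the left of siNonTarget in blue. In every gene shown the groups are apart, by the rule that chose them, and Tfec, Pgpep1l and Maf show a visible spread within groups.

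For most of these 20 genes it was the control arrays that stood apart from the series. In 16 of 20 the siNonTarget arrays lay outside all 8 other arrays, and in 4 of 20 the siFbxw7 arrays did (Tsix belonged to both sets). Across all genes, both siFbxw7 arrays lay above all 8 others in 316 genes (1.74%) and below them in 216 (1.19%). For siNonTarget these counts were 852 and 672. Fxyd3, for example, read 5.83 and 5.81 on the siSocs3 arrays and 5.52 and 5.57 on the siSox17 arrays, all above both siNonTarget arrays. The genes whose siFbxw7 arrays lay outside all others were Tsix and Tfec, which were higher there, and Bcl6 and Arhgap30, which were lower. These arrays entered the comparisons that chose the 20 genes, so the counts describe them and carry no test.

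Direct comparison with the other siRNAs, in which the control arrays enter only through the estimate of the spread, passed the test against siSocs3 only. With adjusted p under 0.05, 0 of 18194 genes (0%) differed from siRnf31 and 0 (0%) from siSox17, with 945 and 1017 genes at an unadjusted p under 0.05 (limma). Against siSocs3, 257 genes (1.41%) were higher and 381 (2.09%) were lower in siFbxw7 (limma, Benjamini-Hochberg). These 638 calls depended on single arrays, with 81 without siSocs3 replicate 1, 292 without siSocs3 replicate 2 and 181 without siFbxw7 replicate 1. Tfec was higher by 1.18 ± 0.21 in siFbxw7 relative to siSocs3 (adjusted p = 0.0186). Arhgap30 was lower there (-0.98 ± 0.09, adjusted p = 0.00185), and so was Bcl6 (-1.04 ± 0.15, adjusted p = 0.00817). The side of these 3 genes relative to siSocs3, siRnf31 and siSox17 was fixed by their choice as lying outside all other arrays. Their calls against siSocs3 are therefore not independent evidence. Relative to siRnf31 and siSox17 the differences were 0.97 and 1.04 for Tfec, -0.26 and -0.13 for Arhgap30, and -0.74 and -0.42 for Bcl6, none past the test. Without siSocs3 replicate 1 the call held for Arhgap30, but not for Tfec (1.02, adjusted p = 0.194) or Bcl6 (-1.02, adjusted p = 0.0947). Arhgap30 differed by -0.29 with its probe sets averaged, which did not pass (adjusted p = 0.145).

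Genes of the extraembryonic endoderm, the lineage that forms the yolk sac and lays down a basement membrane, had the largest share of members that read higher in siFbxw7 at an unadjusted p under 0.05. Of 35 measured, 0 passed the adjusted test, 9 (25.7%) read higher and 1 (2.86%) lower by that measure, beside 3.17% and 3.28% of all genes, and the median difference was 0.23, against 0 over all genes. Both siFbxw7 arrays lay above both controls in 11 (31.4%) and below in 2 (5.71%), beside 16.9% and 16.1% of all genes. Above all 8 other arrays of the series they lay in 6 of 35 (17.1%), beside 1.74% of all genes, and in 0 members of each of the other 27 lists. Those 6 were Cubn, Foxq1, Col4a1, Col4a2, Lama1 and Hnf4a. This list had earlier results of these data in view when it was made, so its count describes the arrays and is not independent evidence.

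Cubn encodes cubilin, an endocytic receptor of the visceral endoderm. On its brighter probe set (1452270_s_at) it read 6.10 and 7.22 in siFbxw7 and 5.30 and 4.54 in siNonTarget, a difference of 1.74 ± 0.41. On the other probe set (1426990_at) it read 5.46 and 5.74 on the siFbxw7 arrays, against 4.33 and 4.29 on the siNonTarget arrays. Both probe sets put both siFbxw7 arrays above the controls. The second had tighter replicates (1.29 ± 0.14, unadjusted p = 6.99e-06) and the smallest p of all probe sets tested alone, but did not pass (limma adjusted p = 0.315). Foxq1, a forkhead transcription factor, read 8.24 and 8.60 in siFbxw7 and 7.67 and 7.37 in siNonTarget (0.90 ± 0.21). Its second probe set (1438558_x_at) gave 0.94 ± 0.28.

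The basement membrane genes read to the same side. Col4a1 and Col4a2 encode the chains of type IV collagen and share a promoter region. Col4a1 read 10.97 and 11.61 on the siFbxw7 arrays, against 10.59 and 10.53 on the siNonTarget arrays (0.73 ± 0.21). Col4a2 read 9.17 and 9.72 in siFbxw7 and 8.80 and 8.74 in siNonTarget (0.67 ± 0.16). In both genes all other arrays lay below the lower siFbxw7 array. Lama1, the alpha chain of the laminin of early basement membranes, read 9.74 and 9.81 on the siFbxw7 arrays, against 9.61 and 8.42 on the siNonTarget arrays (0.76 ± 0.34). The higher control array read close to the siFbxw7 arrays, so the difference for Lama1 rested on siNonTarget replicate 2: it was 0.16 without that array and 1.35 without siNonTarget replicate 1.

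The start regions of the collagen pair are shown because these neighbouring genes read higher together and start close to each other on opposite strands. Both lie on mouse chromosome 8, and the sequences are RefSeq windows of 250 bases before to 50 bases after the annotated start, build GRCm38.p6. The window of Col4a2 is chr8:11312555-11312854 on the plus strand, and that of Col4a1 is chr8:11312777-11313076 on the minus strand. The annotated starts are 21 bases apart, at 11312805 for Col4a2 and 11312826 for Col4a1, so the annotated transcripts overlap at their 5′ ends. Capitals mark the 78 bases that both windows hold, each read on its own strand from 5′ to 3′.
Col4a2: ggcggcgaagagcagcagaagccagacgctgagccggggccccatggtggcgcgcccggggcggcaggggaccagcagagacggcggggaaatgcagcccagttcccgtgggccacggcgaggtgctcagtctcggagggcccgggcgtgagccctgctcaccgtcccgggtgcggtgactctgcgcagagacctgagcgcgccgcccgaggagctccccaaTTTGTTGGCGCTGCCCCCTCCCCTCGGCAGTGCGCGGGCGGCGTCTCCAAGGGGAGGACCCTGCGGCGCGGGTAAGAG
Col4a1: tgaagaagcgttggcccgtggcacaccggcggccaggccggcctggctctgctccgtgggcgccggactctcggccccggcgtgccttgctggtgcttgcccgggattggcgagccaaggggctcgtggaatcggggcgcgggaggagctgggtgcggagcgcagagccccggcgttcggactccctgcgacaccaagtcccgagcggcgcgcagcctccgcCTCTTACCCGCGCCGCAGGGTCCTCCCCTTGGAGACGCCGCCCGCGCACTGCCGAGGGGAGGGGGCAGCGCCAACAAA
The arrays measured transcript levels, and activity of this region was not measured.

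The transcription factors of this lineage and the receptor Pdgfra gave a mixed picture on the same arrays. Gata6, a GATA factor needed for primitive endoderm, read 9.37 and 10 in siFbxw7 and 8.81 and 8.95 in siNonTarget (0.80 ± 0.22). Pdgfra, a receptor of primitive endoderm, read 7.72 and 8.65 on the siFbxw7 arrays, against 7.36 and 7.32 on the siNonTarget arrays (0.85 ± 0.30), and its other probe sets 1438946_at (1.0 ± 0.16) and 1421916_at (0.61 ± 0.24) read to the same side. Hnf4a, a nuclear receptor of visceral endoderm, read 6.11 and 5.99 in siFbxw7 and 5.76 and 5.42 in siNonTarget (0.46 ± 0.13). In these 3 genes the groups did not overlap. Sox17, an endoderm factor of the SOX family, read 7.28 and 8.87 on the siFbxw7 arrays, against 6.37 and 7.39 on the siNonTarget arrays (1.19 ± 0.53). Gata4 (0.56 ± 0.29) and Sox7 (0.67 ± 0.42) overlapped in the same way, with siFbxw7 replicate 1 inside the range of the controls. Sox18, a related SOX factor, read lower, at 6.32 and 5.97 in siFbxw7 and 6.97 and 6.62 in siNonTarget (-0.65 ± 0.21).

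Other members of the list did not read higher, and 24 of 35 had a difference above 0. Ttr, the transthyretin gene of visceral endoderm, read 7.59 and 7.26 on the siFbxw7 arrays, against 7.47 and 8.53 on the siNonTarget arrays (-0.58 ± 0.40). Afp, the alpha-fetoprotein gene of the same tissue, read 3.93 and 3.96 in siFbxw7 and 4.08 and 4.32 in siNonTarget (-0.26 ± 0.14), with both siFbxw7 arrays below the controls. The apolipoprotein gene Apoa1 (-0.17 ± 0.13) and the forkhead genes Foxa1 (-0.21 ± 0.19) and Foxa2 (-0.04 ± 0.20) overlapped with the controls. Genes known from visceral endoderm thus lay on both sides, with Cubn and Hnf4a above the controls and Afp below. Afp was dim on every array of the series, at 3.88 to 4.32, where a small difference says little.

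Relative to the other siRNAs, 5 of the list members named above passed the test against siSocs3: Lama1 (1.89 ± 0.34, limma adjusted p = 0.020), Foxq1 (1.29 ± 0.21, adjusted p = 0.0138), Col4a1 (0.99 ± 0.21, adjusted p = 0.0365), Col4a2 (0.82 ± 0.16, adjusted p = 0.0305) and Foxa2 (0.90 ± 0.20, adjusted p = 0.0499, or 0.0579 with arrays centred on the median). Not every member of the list lay to that side. Rhox5 read 10.79 and 10.77 on the siFbxw7 arrays, against 12.01 and 11.91 on the siSocs3 arrays, and its direct test is not given here. The differences for Foxq1 were 1.35 ± 0.21 relative to siRnf31 and 0.89 ± 0.21 relative to siSox17, and for Cubn 1.65 ± 0.41 and 1.49 ± 0.41. None of these last passed. Lama1, Foxq1, Col4a1 and Col4a2 were named above for lying above all other arrays, siSocs3 included, which fixed their side. Foxa2 was chosen after its values were seen. The calls against siSocs3 are therefore not independent evidence. Without siSocs3 replicate 1 none of the 5 passed, at 1.80 for Lama1, 1.16 for Foxq1, 0.87 for Col4a1, 0.74 for Col4a2 and 0.74 for Foxa2 (adjusted p = 0.148 to 0.361). On single arrays the list median, taken relative to the siNonTarget mean of each gene, was 0.13 and 0.63 on the siFbxw7 arrays, against -0.07 and 0.07 on the siNonTarget arrays, and -0.17 to 0.13 on the other 6. The array siFbxw7 replicate 2 lay above every other array. The median difference was 0.13 without siFbxw7 replicate 2, 0.63 without siFbxw7 replicate 1, and with 1 control array left out it was 0.09 (replicate 1) or 0.45 (replicate 2). In bulk RNA, more cells of a type and more RNA per cell cannot be told apart.

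The medians of the pluripotency lists lay above 0 and that of the retinoic acid list below it, and no member passed the test. Of 19 naive pluripotency genes, 4 (21.1%) read higher and 0 lower at an unadjusted p under 0.05, beside 3.17% and 3.28% of all genes. Of the 19, 13 had a difference above 0, and the median was 0.28. Tbx3, a T-box factor of the naive state, read 10.63 and 11.22 in siFbxw7 and 10.39 and 10.20 in siNonTarget (0.63 ± 0.19). Klf4, a Krüppel-like factor, read 9.72 and 10.50 on the siFbxw7 arrays, against 9.37 and 9.16 on the siNonTarget arrays (0.85 ± 0.35). Both siFbxw7 arrays were above both controls in each, as in Esrrb (0.58 ± 0.23), Fgf4 (0.66 ± 0.29) and Zfp42 (0.29 ± 0.17). Fbxo15, an F-box gene of embryonic stem cells, lay the other way, at 10.94 and 10.86 in siFbxw7 and 11.07 and 11.33 in siNonTarget (-0.30 ± 0.16), with both siFbxw7 arrays below the controls. Relative to siSocs3 it was lower in siFbxw7 (-1.86 ± 0.16, limma adjusted p = 0.00129), also without siSocs3 replicate 1 (-1.66, adjusted p = 0.0157). Gbx2 (-0.32 ± 0.42), Dppa3 (-0.25 ± 0.25) and Stat3 (-0.19 ± 0.20) also differed by less than 0 from siNonTarget, with overlap. By array the list median was 0.17 and 0.43 in siFbxw7, 0.34 and 0 in siRnf31, 0.43 and 0.67 in siSox17, 1.12 and 1.0 in siSocs3, and 0.06 and -0.06 in siNonTarget. The siSox17 arrays thus read at or above both siFbxw7 arrays. The median of the array differences was -0.03 for the replicate 1 pair and 0.48 for the replicate 2 pair. The median difference was 0.17 without siFbxw7 replicate 2 and 0.43 without siFbxw7 replicate 1.

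Of 18 core pluripotency genes, 9 (50%) had both siFbxw7 arrays above both controls and 3 (16.7%) below, beside 16.9% and 16.1% of all genes, with a median of 0.26. Pou5f1, which encodes OCT4, read 11.83 and 12.30 on the siFbxw7 arrays, against 11.84 and 11.10 on the siNonTarget arrays (0.60 ± 0.32), and the groups overlapped. Nanog read 11.42 and 11.76 in siFbxw7 and 11.26 and 11.24 in siNonTarget (0.34 ± 0.22). It was lower in siFbxw7 than in siSocs3 (-1.20 ± 0.22, limma adjusted p = 0.0246), a call lost without siSocs3 replicate 1 (adjusted p = 0.218). Sox2 read to the other side, at 11.42 and 11.13 on the siFbxw7 arrays, against 11.57 and 11.43 on the siNonTarget arrays (-0.22 ± 0.14). The growth factor gene Gdf3 (0.71 ± 0.27) and the chromatin factor gene Utf1 (0.60 ± 0.24) had both arrays above the controls, as had the methyltransferase gene Dnmt3b (0.41 ± 0.15) of the separate formative and primed list.

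Of 28 retinoic acid response genes 0 passed, 6 (21.4%) read lower and 1 (3.57%) higher at an unadjusted p under 0.05, beside 3.28% and 3.17% of all genes, and the median difference was -0.36. Beside Nr2f1, Crabp1 and Ret above, Rarb, a retinoic acid receptor that is itself induced by its ligand, read 9.69 and 9.39 in siFbxw7 and 9.87 and 10.08 in siNonTarget (-0.44 ± 0.13). Tgm2, a transglutaminase, read 9.76 and 8.97 on the siFbxw7 arrays, against 10.07 and 10.02 on the siNonTarget arrays (-0.69 ± 0.23). Both siFbxw7 arrays were below both controls for these genes, while the homeobox gene Cdx1 read higher, at 8.18 and 8.70 in siFbxw7 and 7.77 and 7.70 in siNonTarget (0.71 ± 0.29). Relative to siSocs3, Rarb was higher in siFbxw7 (0.73 ± 0.13, limma adjusted p = 0.0186), a call also lost without siSocs3 replicate 1 (adjusted p = 0.176). The list median by array was -0.01 and -0.59 on the siFbxw7 arrays, against 0.17 and -0.17 on the siNonTarget arrays, and -1.40 to -0.25 on the other 6. The siNonTarget arrays averaged highest of the 5 groups, and siFbxw7 replicate 1 lay between them. The median difference was -0.01 without siFbxw7 replicate 2, -0.59 without siFbxw7 replicate 1 and -0.11 without siNonTarget replicate 1.

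Of 23 neural genes, 1 (4.35%) read higher and 2 (8.70%) lower at an unadjusted p under 0.05, and both siFbxw7 arrays lay above both controls in 3 (13%) and below in 4 (17.4%). These shares were close to those of all genes (3.17%, 3.28%, 16.9% and 16.1%). Only 5 of the 23 had a difference above 0, and the list median was -0.17 (-0.07 without siFbxw7 replicate 2, -0.29 without siFbxw7 replicate 1). Irx3, a homeobox gene of the neural plate, read 9.70 and 8.54 in siFbxw7 and 10.14 and 10.19 in siNonTarget (-1.05 ± 0.39). Pax6 read 8.64 and 7.62 on the siFbxw7 arrays, against 9.22 and 8.61 on the siNonTarget arrays (-0.79 ± 0.32), and its groups overlapped. The 3 genes above the controls were Neurog1, a proneural factor (0.29 ± 0.12), Dcx, a microtubule protein of young neurons (0.25 ± 0.12), and Neurod1, a neuronal differentiation factor (0.66 ± 0.35). In the mesoderm list Isl1, a LIM homeobox gene of heart and motor neuron progenitors, read 6.17 and 5.99 in siFbxw7 and 6.48 and 6.81 in siNonTarget (-0.56 ± 0.17). Definitive endoderm, mesoderm and trophectoderm lists had medians between -0.08 and 0.06.

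**Figure D4:**
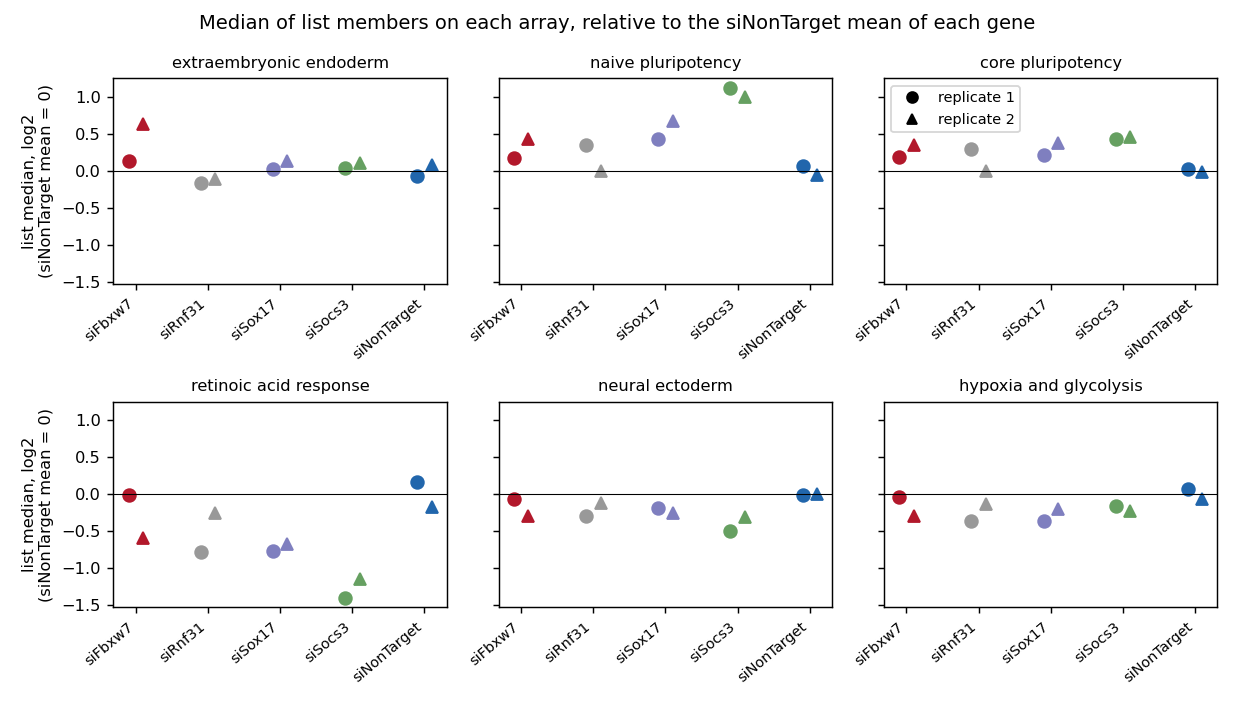
Median over the members of 6 gene lists on each array (y axis, log2, each gene set to 0 at its siNonTarget mean), by group (x axis). Points are single arrays and shapes give the replicate number. For extraembryonic endoderm, siFbxw7 replicate 2 at 0.63 lies above every other array, and for the naive pluripotency and retinoic acid lists the siSocs3 arrays lie farther from siNonTarget than the siFbxw7 arrays do.

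Differences were small for the transcripts of the ligase and its cofactors. Of 17 genes of the SCF core, its cofactors and neddylation, 0 read higher and 1 (5.88%) lower at an unadjusted p under 0.05. Over all genes these shares were 3.17% and 3.28%. The list had a median of -0.05 and a range of -0.29 to 0.29. Cul1 read 10.77 and 10.74 on the siFbxw7 arrays, against 10.76 and 10.73 on the siNonTarget arrays, and Skp1 differed by -0.05 ± 0.10. The lowest p belonged to Usp28, a deubiquitinase that opposes FBXW7, which read 8.03 and 7.90 in siFbxw7 and 8.33 and 8.17 in siNonTarget (-0.28 ± 0.10, unadjusted p = 0.0221, limma adjusted p = 0.752). Gsk3b, which encodes a kinase that phosphorylates many degrons, differed by -0.22 ± 0.11. Both siFbxw7 arrays were below both controls in 7 of 17 (41.2%) and above in 1 (5.88%), beside 16.1% and 16.9% of all genes, none further from the controls than the range given. Among 17 other F-box genes the range was -0.94 to 0.41, from Fbxo32, a ligase gene of muscle atrophy, to Fbxw9, and neither had arrays apart from the controls.

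Of 36 genes whose proteins FBXW7 is known to mark, 0 passed the test, and the median was -0.06. In 7 (19.4%) both siFbxw7 arrays lay above both controls and in 3 (8.33%) below, beside 16.9% and 16.1% of all genes. At an unadjusted p under 0.05, 0 read higher and 1 (2.78%) lower, beside 3.17% and 3.28% of all genes. That gene was Notch4, which read 6.16 and 5.67 on the siFbxw7 arrays, against 6.68 and 6.44 on the siNonTarget arrays (-0.65 ± 0.24). Myc read 8.87 and 8.90 in siFbxw7 and 8.57 and 8.70 in siNonTarget (0.24 ± 0.16), with both siFbxw7 arrays above the controls. Ccne1, which encodes cyclin E, differed by 0.14 ± 0.10 and Mycn by -0.13 ± 0.12. Jun (-0.03 ± 0.17), Notch1 (-0.21 ± 0.17), Mcl1 (0.12 ± 0.12) and Klf5 (0.48 ± 0.25) overlapped with the controls. The repair gene Xrcc4 differed by -0.24 ± 0.12 and the NF-kB subunit gene Nfkb2 by 0.22 ± 0.12. Protein levels were not measured, so the list says nothing of the stability of these proteins.

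Transcripts that lie downstream of these substrates showed small differences. Of 32 MYC targets and ribosome biogenesis genes, 26 had a difference above 0, but the median was 0.08. At an unadjusted p under 0.05, 2 (6.25%) read higher and 0 lower, beside 3.17% and 3.28% of all genes. In 9 (28.1%) both siFbxw7 arrays lay above both controls and in 1 (3.12%) below, beside 16.9% and 16.1% of all genes. Wdr12, a ribosome biogenesis factor, read 9.97 and 10.14 on the siFbxw7 arrays, against 9.71 and 9.85 on the siNonTarget arrays (0.28 ± 0.10). Srm, spermidine synthase, read 11.69 and 11.81 in siFbxw7 and 11.51 and 11.43 in siNonTarget (0.28 ± 0.12). Both genes had the siFbxw7 arrays above the controls. Of 23 Notch pathway genes, 1 (4.35%) read higher and 2 (8.70%) lower at that p, again beside 3.17% and 3.28%. Their median was -0.11, and 7 of the 23 had a difference above 0. In 2 (8.7%) both siFbxw7 arrays lay above both controls and in 5 (21.7%) below, beside 16.9% and 16.1%. Hey1, a Notch target, read 6.43 and 5.61 on the siFbxw7 arrays, against 6.77 and 7.18 on the siNonTarget arrays (-0.96 ± 0.27). The receptor gene Notch2 (-0.49 ± 0.18) was also below the controls, Heyl was above them (0.33 ± 0.14), and Hes1 differed by -0.05 ± 0.10.

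Cell cycle lists lay near 0, with medians of 0.04 for 27 G1 and S phase genes and -0.09 for 21 mitotic genes. A difference above 0 was seen in 17 of the 27 and in 3 of the 21. Cdc6, a replication licensing factor, read 10.52 and 10.78 in siFbxw7 and 10.20 and 10.45 in siNonTarget (0.33 ± 0.14), which was the lowest p of the G1 and S phase list. The 31 proteasome subunit genes ranged from -0.12 to 0.26, with a median of -0.03. Medians of the sterol synthesis, interferon, unfolded protein, mTORC1 and clock lists lay between -0.06 and 0.02.

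**Figure D5:**
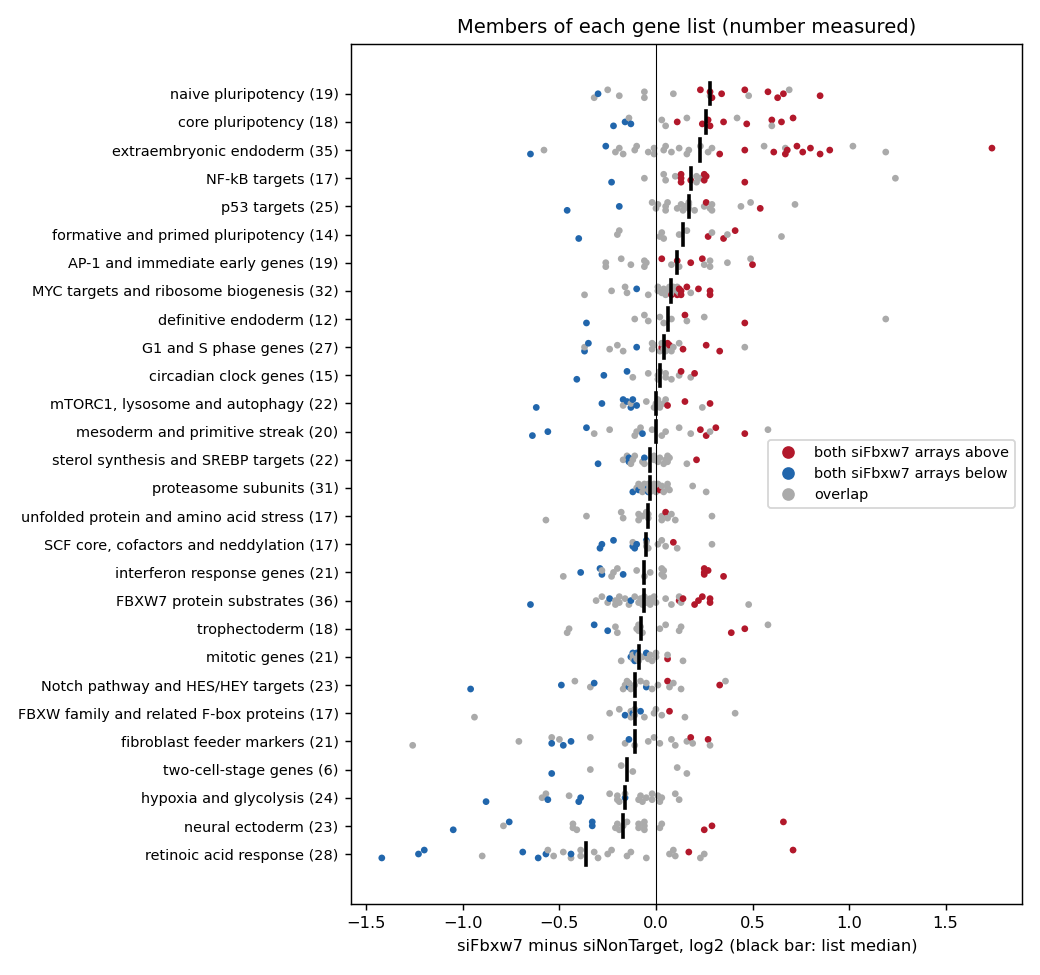
Difference siFbxw7 minus siNonTarget (x axis, log2) of each measured member of the 28 gene lists (y axis, with the number measured). Points are genes, coloured by whether both siFbxw7 arrays lay above both siNonTarget arrays (red), below (blue) or overlapped (grey), and the black bar is the list median. Medians run from -0.36 for retinoic acid response to 0.28 for naive pluripotency, and the farthest member to the right is Cubn at 1.74.

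No gene of the stress and survival lists passed the test. Of 25 p53 target genes 0 had an unadjusted p under 0.05, beside 3.17% higher and 3.28% lower over all genes. A difference above 0 was seen in 21, with a median of 0.17. That median was 0.27 and 0.07 without siFbxw7 replicate 1 or 2, and 0.03 and 0.30 without siNonTarget replicate 1 or 2. By array the p53 list median was 0.07 and 0.27 in siFbxw7, 0.40 and 0.12 in siRnf31, 0.48 and 0.32 in siSox17, and 0.01 and 0.06 in siSocs3. Cdkn1a, the p21 gene, read 10.59 and 10.61 on the siFbxw7 arrays, against 10.14 and 10.54 on the siNonTarget arrays (0.26 ± 0.18), and Mdm2 differed by 0.44 ± 0.24 with overlap. Of 17 NF-kB targets, both siFbxw7 arrays lay above both controls in 8 (47.1%) and below in 1 (5.88%), beside 16.9% and 16.1% of all genes. By array the NF-kB list median was 0.13 and 0.26 in siFbxw7, 0.06 and 0.10 in siRnf31, 0.33 and 0.31 in siSox17, and 0.21 and 0.11 in siSocs3. The siSox17 arrays thus read above both siFbxw7 arrays. The survival gene Bcl2l1 read 9.80 and 9.92 in siFbxw7 and 9.28 and 9.53 in siNonTarget (0.46 ± 0.13). Egr1, an immediate early factor, read 7.74 and 7.98 on the siFbxw7 arrays, against 7.37 and 7.35 on the siNonTarget arrays (0.50 ± 0.14). Of 24 hypoxia and glycolysis genes, both siFbxw7 arrays lay below both controls in 5 (20.8%), near the 16.1% of all genes, and above them in 0, beside 16.9%. The glycolytic genes Pfkp (-0.56 ± 0.18) and Aldoc (-0.88 ± 0.35) were the 2 (8.33%) with an unadjusted p under 0.05. Over all genes 3.28% read lower at that p.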

How the data were processed

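Expression was measured on 10 Affymetrix arrays, 2 per siRNA group. From 5 ng of RNA, amplified cDNA was made and labelled with biotin, per the labels' protocols. The authors deposited RMA intensities for each probe set, per the submitters' processing notes. The RMA version and later scaling are not given in the sources. Values ran from 5.05 to 31606.3, a linear scale, and log2 was taken first. RMA equalises the arrays' distributions and so hides a shift common to most genes. The number of arrays limits the precision.

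Of 45101 probe sets, the platform annotation gave 34958 a single gene symbol. Those with several (932) were left out and 9211 are unnamed here. Gene IDs of 34754 matched RefSeq (GRCm38.p6) and no symbol changed. The probe set of highest mean stood for its gene, giving 18194 genes. The 5 groups were fitted in one model with limma 3.58.1 in R 4.3.3 (5 residual and 3.98 prior degrees of freedom), two-sided, with Benjamini-Hochberg adjustment over all genes and a threshold of 0.05. Lists are described by counts and medians. The model was tested on simulated data.

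Members and lists were chosen with earlier results of these data known. The text names Fbxw7, the 10 genes of smallest unadjusted p and the 5 largest differences in each direction among genes whose groups did not overlap (Clone, Gm and Rik names skipped), up to 4 members of each list by p, and a set of pathway and lineage genes. Aldh1l2, Acta2, Cdx1, Col4a1, Cxcl10, Hnf4a, Krt8, Krt18, Lama1, Pdgfra, Rhox5, Sox18, Tagln, Vnn1, Afp, Apoa1, Dcx, Dppa3, Fbxo15, Foxa1, Foxa2, Gbx2, Neurod1, Neurog1, Stat3 and Ttr fall outside this rule and were chosen after their values were seen, as was the count of arrays outside all 8 others. Plots used matplotlib 3.10.9 (Python 3.11.15).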

Additional observations from a re-analysis of the deposited data

Results flagged for a closer look

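For 15 genes named above, Rhox5 left aside, the level in siFbxw7 differed from that in siSocs3 by the direct test (limma, Benjamini-Hochberg adjusted over all genes). In it the control arrays enter only through the estimate of the spread. None of the 15 passed against siNonTarget, where Hes1 differed by -0.05 ± 0.10 and Foxa2 by -0.04 ± 0.20. Lama1, Foxq1, Tfec, Col4a1, Col4a2, Arhgap30 and Bcl6 were named above for lying outside all other arrays, which fixed their side. The differences, siFbxw7 minus siSocs3, were 1.89 ± 0.34 for Lama1, 1.29 ± 0.21 for Foxq1, 1.18 ± 0.21 for Tfec, 0.99 ± 0.21 for Col4a1, 0.90 ± 0.20 for Foxa2 and 0.82 ± 0.16 for Col4a2. They were 0.73 ± 0.13 for Rarb, 0.62 ± 0.12 for Ulk2 and 0.54 ± 0.10 for Hes1. Negative differences were -0.93 ± 0.18 for Pfkp, -0.98 ± 0.09 for Arhgap30, -1.04 ± 0.15 for Bcl6, -1.20 ± 0.22 for Nanog, -1.30 ± 0.25 for Dppa3 and -1.86 ± 0.16 for Fbxo15. Ulk2 read 7.19 and 7.05 on the siFbxw7 arrays, 6.35 and 6.66 on the siSocs3 arrays and 7.75 and 7.72 on the siNonTarget arrays, so siFbxw7 lay between the other groups. Hes1 read 9.21 and 9.22 on the siFbxw7 arrays, 8.74 and 8.61 on the siSocs3 arrays and 9.23 and 9.30 on the siNonTarget arrays. All 15 kept their direction in each of 12 alternatives that tested them (the filters on dim genes removed 1 and 2 of them), but without siSocs3 replicate 1 the call held for 2 of the 15 (Arhgap30 and Fbxo15), without siSocs3 replicate 2 for 6, without siFbxw7 replicate 1 for 6 and without siFbxw7 replicate 2 for 10. With the 4 arrays alone it held for 8 of 15, under quantile normalization or median centring for 14, and with probe sets averaged for 12, where Arhgap30 read -0.29 and Pfkp -0.30. The groups hold 2 arrays each, too few to look for a single array far from its group.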

How the results depend on the processing

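The count of genes with an adjusted p under 0.05 between siFbxw7 and siNonTarget was 0 in each of 15 alternatives, and Fbxw7 stayed below 0 and short of the threshold, at -0.25 with the replicate block. With the replicate block 1194 genes had an unadjusted p under 0.05, against 1174 without it. Over all genes, the difference between replicates 1 and 2 of siFbxw7 correlated at 0.42 with that of siNonTarget. Whether same-numbered arrays belong together was not tested. If no gene differed, 910 of the 18194 genes would be expected at that p. The count at an unadjusted p under 0.05 was 697 with the 4 arrays alone, below that number. It was 772 and 447 without the dimmest 30% or 50% of genes, where fewer genes were tested and fewer would be expected. Over every probe set, where more were tested, the count was 2447. It was 2055 without both replicate 1 arrays, an alternative, like the fit without siSocs3, chosen after seeing the data. Leaving out single arrays gave 674 (without siFbxw7 replicate 2) to 2288 (without siFbxw7 replicate 1), and Fbxw7 at -0.38 to -0.11. The lone array was taken to vary like the other groups. Between siFbxw7 and siSocs3 the 638 calls were 545 with the replicate block, 307 with the 4 arrays alone, and 81 (without siSocs3 replicate 1) to 898 (without siFbxw7 replicate 2) with single arrays left out. The counts relative to siRnf31 and siSox17 were 0 in each of 12 alternatives. These alternatives were also chosen after seeing the data.

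Of 1557 values for 107 named genes, 1530 kept their direction and 0 passed the threshold. The sign turned for Jun (0.01) and Foxa2 (0.01) under quantile normalization, and without both replicate 1 arrays for Krt8 (-0.29), Krt18 (-0.42) and Tagln (-0.62). Leaving out single arrays, Skp1 ranged from -0.14 to 0.03, Cul1 from -0.01 to 0.02, Jun from -0.32 to 0.25, Notch1 from -0.43 to 0.01, Krt8 from -0.9 to 1.14, Krt18 from -0.96 to 1.05, Aldh1l2 from -1.17 to 0.04, Acta2 from -2.83 to 1.4, Tagln from -1.3 to 1.46, Gbx2 from -0.94 to 0.29, Dppa3 from -0.58 to 0.08, Apoa1 from -0.35 to 0.01, Foxa1 from -0.48 to 0.06 and Foxa2 from -0.24 to 0.15. The cause was not tested.

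Of 420 list medians, 46 moved by more than the spread and 16 changed sign.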

Other observations

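A set of genes differed in the same direction between the replicates of siFbxw7 and those of siNonTarget. On the array pairs, 46 genes read at least 2-fold higher on replicate 2 than on replicate 1 in both groups, and 16 at least 2-fold lower. Those described here were chosen after their values were seen. Acta2, the smooth muscle actin gene, read 8.02 and 9.10 on the siFbxw7 arrays, 7.16 and 11.39 on the siNonTarget arrays, and 9.09 to 11.63 on the other 6. Tagln, which encodes the actin-binding protein transgelin, read 10.35 and 11.72 in siFbxw7 and 9.58 and 12.34 in siNonTarget. The keratin genes Krt8 (11.15 and 12.38 on the siFbxw7 arrays, 10.63 and 12.67 on the siNonTarget arrays) and Krt18 (11.12 and 12.19 on the siFbxw7 arrays, 10.61 and 12.61 on the siNonTarget arrays) had the same order. The mean differences were -0.71 ± 1.17 for Acta2, 0.08 ± 0.77 for Tagln, 0.12 ± 0.59 for Krt8 and 0.05 ± 0.57 for Krt18, all smaller than their standard errors. In each of these genes the replicate 1 arrays of siFbxw7 and siNonTarget were the lowest of the 10. These were also the arrays with the larger actin 3' to 5' difference, whose part was not tested.

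The 3 genes at least 2-fold apart between the replicate 1 arrays were Vnn1, a pantetheinase gene, and the chemokine gene Cxcl10, which read higher on the siFbxw7 array, and Aldh1l2, a mitochondrial folate enzyme gene, which read lower. Vnn1 read 6.08 and 8.66 on the siFbxw7 arrays, against 4.85 and 6.74 on the siNonTarget arrays (1.58 ± 0.79). Cxcl10 read 6.73 and 8.85 in siFbxw7 and 5.62 and 7.48 in siNonTarget (1.24 ± 0.69). Between arrays of the same number these differences were alike, at 1.24 and 1.92 for Vnn1 and 1.10 and 1.37 for Cxcl10. Aldh1l2 read 5.51 and 5.31 on the siFbxw7 arrays, against 6.58 and 5.37 on the siNonTarget arrays, and its difference was seen on replicate 1 alone.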
